A study of Mus musculus with 8 samples.

Results

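Aminoacyl-tRNA synthetases join each amino acid to its tRNA. Their genes were followed by RNA-Seq in mouse embryonic fibroblast (MEF) cells exposed to RHPS4, a ligand of G-quadruplexes (G4), the folded structures of G-rich DNA and RNA. The set comprised 37 synthetase genes of the 24460 genes in the files, chosen by name and with earlier results of these data known. Of these, 16 were taken as mitochondrial because their symbol ends in 2, and the other 21, which include Tarsl2, as cytosolic. All 37 had enough counts to be tested, among 14296 tested genes. The cells were wild type MEFs and differed in the RHPS4 dose: 3 libraries came from cells at 0 µM, 3 from cells at 2 µM and 2 from cells at 10 µM. The labels do not settle how long these cultures were exposed, and nothing states that libraries of one dose came from separate cultures, so p values measure only the spread between these libraries, which may be technical.

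Cytosolic synthetases charge the tRNAs that the ribosomes of the cytosol use. Mitochondrial synthetases are encoded in the nucleus too, are imported, and charge the tRNAs made from mitochondrial DNA (mtDNA). Gars and Kars each encode both a cytosolic and a mitochondrial form of the glycine and lysine enzymes, and Eprs encodes one protein that charges both glutamate and proline. Several cytosolic enzymes are bound in a large multisynthetase complex. Genes for cytosolic synthetases are known targets of ATF4, the transcription factor of the integrated stress response and of amino acid shortage.

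Libraries held between 10455965 and 26688121 counts. Levels are given as CPM, the counts scaled to the size of the library with edgeR's TMM method, and 3 counts corresponded to 0.112 to 0.287 CPM. The synthetase genes had between 63 and 11104 counts in a library, far above this floor. All 8 fibroblast markers checked were above 1 CPM in every library, whereas the 4 myoblast markers stayed at a summed 1.73 CPM or less. Of the 3 neural markers Map2 averaged 46.5 CPM, whereas Sox2, the lowest, averaged 0.696 CPM. The highest epithelial marker averaged 1.77 CPM, the highest endothelial one 1.65 CPM and the highest leukocyte one, Cd68, 5.72 CPM. Among the 0 µM libraries the first replicate, which was also the smallest, stood apart from the others, and Lars2 and the balance of the compartments, which rest on it, are given with and without it. The mtDNA features took 13.2% to 14.4% of the counts at 0 µM, 7.40% to 8.26% at 2 µM and 5.33% to 6.32% at 10 µM. In bulk RNA, a change in the number of cells of one kind and a change in their RNA cannot be told apart.

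At 0 µM the cytosolic genes were the more abundant. Per kilobase of exon, their level had a median of 61.9 CPM per kb over 21 genes, from 7.15 for Tarsl2 to 119 for Kars. The mitochondrial genes had a median of 6.63 CPM per kb over 16 genes, from 1.32 for Mars2 to 63.8 for Lars2. Lars2, for mitochondrial leucyl-tRNA synthetase, had the highest of these levels, but its untreated libraries differed widely. It had 63.8 ± 59.3 CPM per kb (SD, n = 3), and 29.8 ± 11.1 CPM per kb (SD, n = 2) without the first replicate. The next was Iars2 at 16.6 CPM per kb, where exons of Rab3gap2 cover 30.49% of its exon bases on the opposite strand. Tarsl2, a second threonyl-tRNA synthetase gene counted as cytosolic, lay among the mitochondrial levels.

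At 10 µM RHPS4, 10 cytosolic synthetase genes and 1 mitochondrial one rose, and the others did not pass the test. With edgeR's quasi-likelihood test, 10 of 21 cytosolic genes (Aars, Cars, Eprs, Gars, Iars, Lars, Nars, Sars, Tars and Yars) and 1 of 16 mitochondrial genes (Rars2) rose against 0 µM at an adjusted p under 0.01. Over all tested genes, 2.77% rose by this rule. No synthetase gene fell by it, against 2.46% of all tested genes, with 1 cytosolic gene (Vars) and 2 mitochondrial genes (Cars2 and Lars2) lower at an unadjusted p under 0.05, and DESeq2 also found 0. The study's threshold for a differentially expressed gene (DEG) also asks for a fold change over 1.5. By it 4 cytosolic genes, Sars, Lars, Aars and Eprs, were higher, against 1.95% of all tested genes. No mitochondrial gene was, although 4 (Fars2, Hars2, Pars2 and Rars2) were higher at an unadjusted p under 0.05, and DESeq2 also gave 0. Lower DEGs were 0 in both compartments by edgeR and by DESeq2, against 1.14% of all tested genes. The median log2 fold change was 0.38 over the cytosolic genes, 0.052 over the mitochondrial genes and 0.016 over all tested genes. The study lists Sars, Lars, Eprs and Aars in a pathway set chosen on these same libraries, so the set is not independent evidence of their direction.

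**Figure D1:**
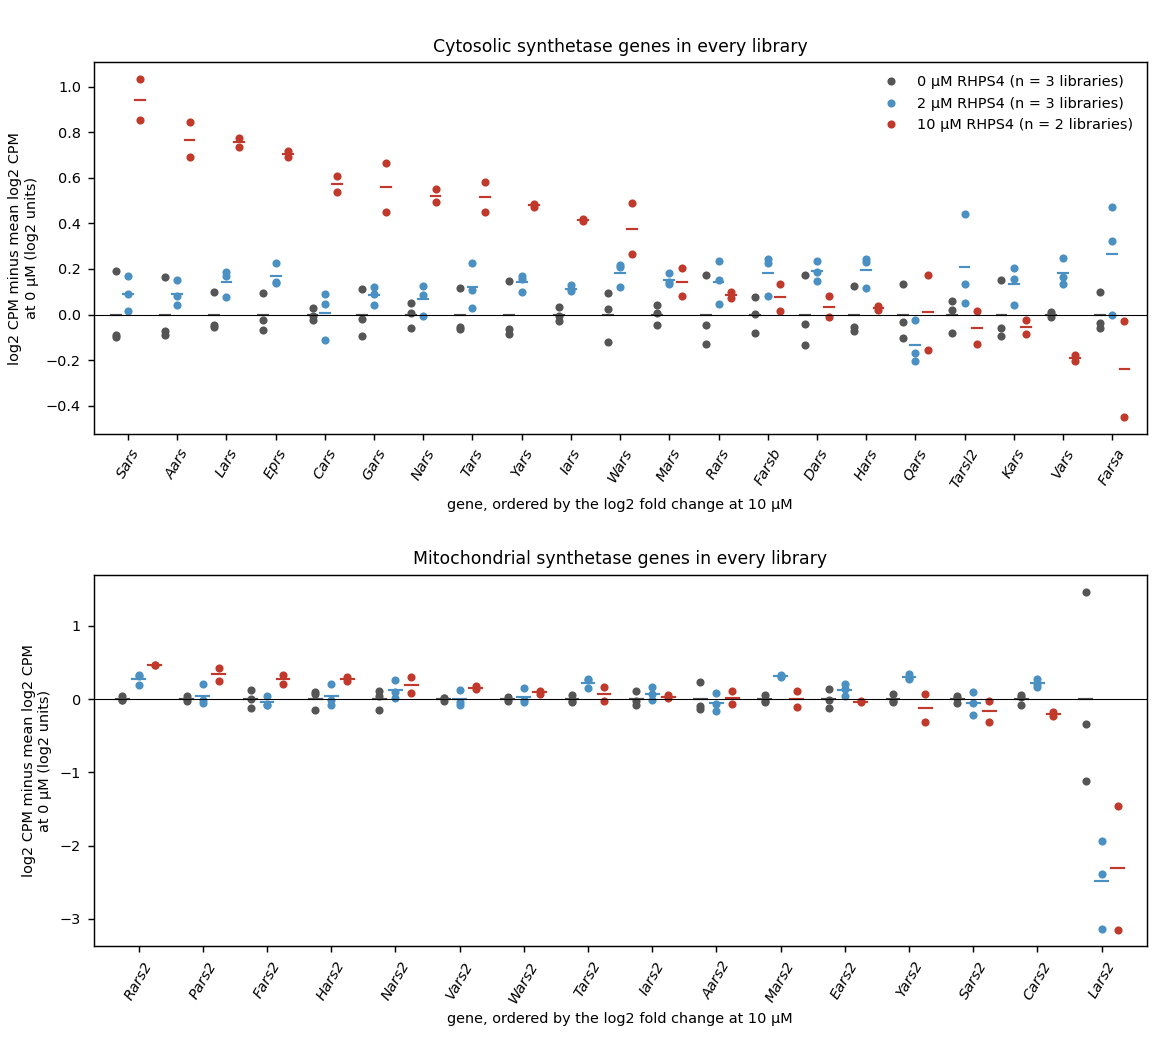
Each point is the log2 CPM of a gene in one library minus the mean log2 CPM of that gene at 0 µM, with grey points for 0 µM, blue for 2 µM and red for 10 µM RHPS4, and short lines for dose means. Genes are ordered by their log2 fold change at 10 µM, from Sars to Farsa among the cytosolic genes above and from Rars2 to Lars2 among the mitochondrial genes below, on vertical axes with different ranges.

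Sars, for seryl-tRNA synthetase, had the largest increase of the 37 genes. It had 271, 222 and 224 CPM at 0 µM, 268, 253 and 240.2 CPM at 2 µM, and 429.9 and 486 CPM at 10 µM. Both 10 µM libraries lay above all others, while the 2 µM libraries overlapped with the untreated ones. The log2 fold change at 10 µM was 0.94 (standard error, SE, 0.101, edgeR adjusted p = 0.000163), that is, 1.92-fold. Sars lies on chromosome 3 of GRCm38 from 108424865 to 108445209, on the minus strand. Its mitochondrial counterpart Sars2 was near 6 CPM throughout, between 6.10 and 6.54 CPM at 0 µM and 5.13 and 6.26 CPM at 10 µM (log2 fold change −0.16, adjusted p = 0.508).

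Aars, for alanyl-tRNA synthetase, had 411, 349 and 345 CPM at 0 µM, 408, 388 and 377 CPM at 2 µM, and 592 and 659 CPM at 10 µM. Again only the 10 µM libraries stood apart. Its log2 fold change at 10 µM was 0.77 (SE 0.0931, edgeR adjusted p = 0.000386). Aars lies on chromosome 8 from 111033144 to 111057664 on the plus strand, where 23.06% of its exon bases are shared with exons of Exosc6, an RNA exosome gene on the same strand. Exosc6 itself was lower at 10 µM, at 20.1 and 19.9 CPM against 26.6 to 28.5 CPM at 0 µM (log2 fold change −0.45, adjusted p = 0.012). Aars2, the mitochondrial gene, had 12.7 to 16.5 CPM at 0 µM and 15.1 and 13.3 CPM at 10 µM, so that the groups overlapped.

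Lars and Eprs are the DEGs whose enzymes belong to the multisynthetase complex. Lars, for leucyl-tRNA synthetase, had 291, 261 and 263 CPM at 0 µM, 309, 304 and 286 CPM at 2 µM, and 464 and 451 CPM at 10 µM. Its log2 fold change at 10 µM was 0.75 (SE 0.0774, edgeR adjusted p = 0.000114). Eprs, on chromosome 1 from 185363044 to 185428360, had 324, 289 and 298 CPM at 0 µM, 355, 334 and 334 CPM at 2 µM, and 499 and 489.8 CPM at 10 µM, with 0.70 as its log2 fold change (SE 0.0764, adjusted p = 0.000176). For Lars and Eprs both 10 µM libraries lay above every other library. Of the mitochondrial genes for the same amino acids as Eprs, Ears2 for glutamate had a log2 fold change of −0.053 (adjusted p = 0.794), and Pars2 for proline had 6.44 to 6.75 CPM at 0 µM and 7.82 and 8.85 CPM at 10 µM, with 0.34 (adjusted p = 0.108). These 4 DEGs kept their calls at 10 µM in all 16 alternative fits, among them each fit that left out 1 library.

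**Figure D2:**
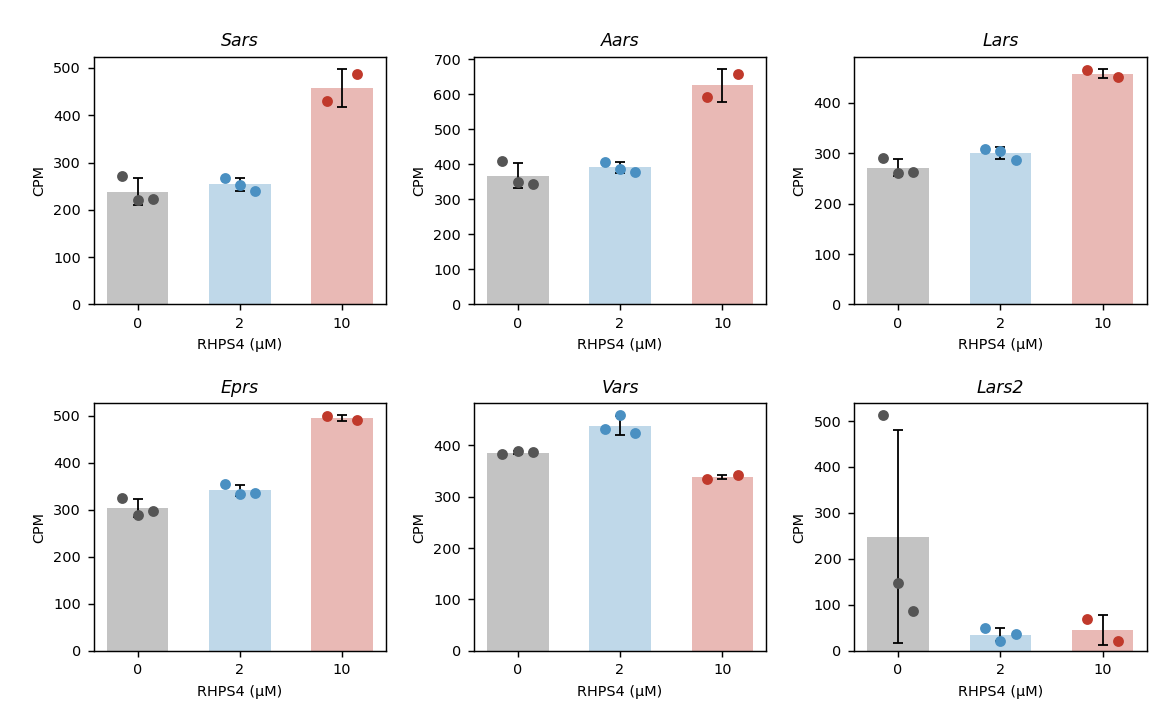
Bars give the mean CPM (linear axis from 0) of 6 genes at 0, 2 and 10 µM RHPS4, error bars the SD, and points the libraries (n = 3, 3 and 2). Sars, Aars, Lars and Eprs have both 10 µM points above all others, Vars has its 10 µM points below all others, and the 0 µM points of Lars2 spread from 85.6 to 513 CPM.

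Of the other rising cytosolic genes, Cars, Gars, Nars, Tars, Yars and Iars changed by less than 1.5-fold. Cars, for cysteinyl-tRNA synthetase, was just under this limit, with 93.1 ± 1.76 CPM (SD, n = 3) at 0 µM and 139 ± 4.92 CPM (SD, n = 2) at 10 µM, a 1.49-fold change (log2 0.57, edgeR adjusted p = 0.000903). Iars, for isoleucyl-tRNA synthetase, had the smallest change of those that rose, from 449.8 ± 10.1 CPM to 599.6 ± 2.94 CPM (log2 0.41, adjusted p = 0.00296). These 6 genes and Rars2 were less secure than the DEGs, since each lost its call in at least 1 fit that left out a library. Of the 11 genes that rose, 5 were called without the second 0 µM replicate, 5 without the first and 5 without the second 10 µM replicate, 7 without the third 0 µM replicate and 7 without the second 2 µM replicate. With the 0 and 10 µM libraries alone in the fit, 6 were called. Wars, for tryptophanyl-tRNA synthetase, missed the threshold with a log2 fold change of 0.38 (adjusted p = 0.0206).

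The remaining 10 cytosolic genes did not pass the test at 10 µM. They were Dars, Farsa, Farsb, Hars, Kars, Mars, Qars, Rars, Tarsl2 and Vars, with log2 fold changes from −0.22 for Farsa to 0.14 for Mars. Farsa and Farsb encode the subunits of phenylalanyl-tRNA synthetase, and neither passed. Kars, the cytosolic gene with the highest level per kilobase, had 256 ± 7.91 CPM at 10 µM against 267 ± 25.1 CPM at 0 µM. Mars overlaps Ddit3, a stress response gene on the opposite strand, by 68 exon bases.

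The rising genes included enzymes inside and outside the complex and of both catalytic classes. Of the 8 complex enzymes (Dars, Eprs, Iars, Kars, Lars, Mars, Qars and Rars), 3 rose, and of the 13 cytosolic genes outside the complex 7 did. Their median log2 fold changes were 0.11 and 0.48. Class I and class II synthetases have catalytic domains of different folds. Of the 9 cytosolic class I genes 4 rose, and of the 11 class II genes 5 did, with Eprs, which holds both kinds of domain, left out. The class I genes had a median log2 fold change of 0.38 and the class II genes 0.078.

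At 2 µM, no synthetase gene passed. By edgeR's test 0 of 37 genes were higher at an adjusted p under 0.01, against 0.203% of all tested genes, and 0 were lower, against 0.546%. DEGs were 0 in both directions, against 0.119% higher and 0.378% lower over all tested genes, and DESeq2 also gave 0 by both rules. At an unadjusted p under 0.05, 6 cytosolic genes (Dars, Eprs, Farsb, Hars, Mars and Vars) and 5 mitochondrial genes (Cars2, Mars2, Rars2, Tars2 and Yars2) were higher, and Lars2 was lower. The values were mostly a little above the untreated ones. The median log2 fold change was 0.14 over the cytosolic genes and 0.062 over the mitochondrial genes, against −0.011 over all tested genes, and 20 of 21 cytosolic genes had a value above 0. Every 2 µM library lay above every untreated one in 6 cytosolic genes (Eprs, Farsb, Iars, Mars, Vars and Wars). So it did in 5 mitochondrial genes (Cars2, Mars2, Rars2, Tars2 and Yars2), against 12.7% of all tested genes. Every 2 µM library lay below in Lars2 alone, against 12.9%. Both 10 µM libraries lay above every untreated one in 12 cytosolic and 6 mitochondrial genes, against 22.9% of all tested genes. They lay below in Vars, Cars2 and Lars2, against 20.0%.

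**Figure D3:**
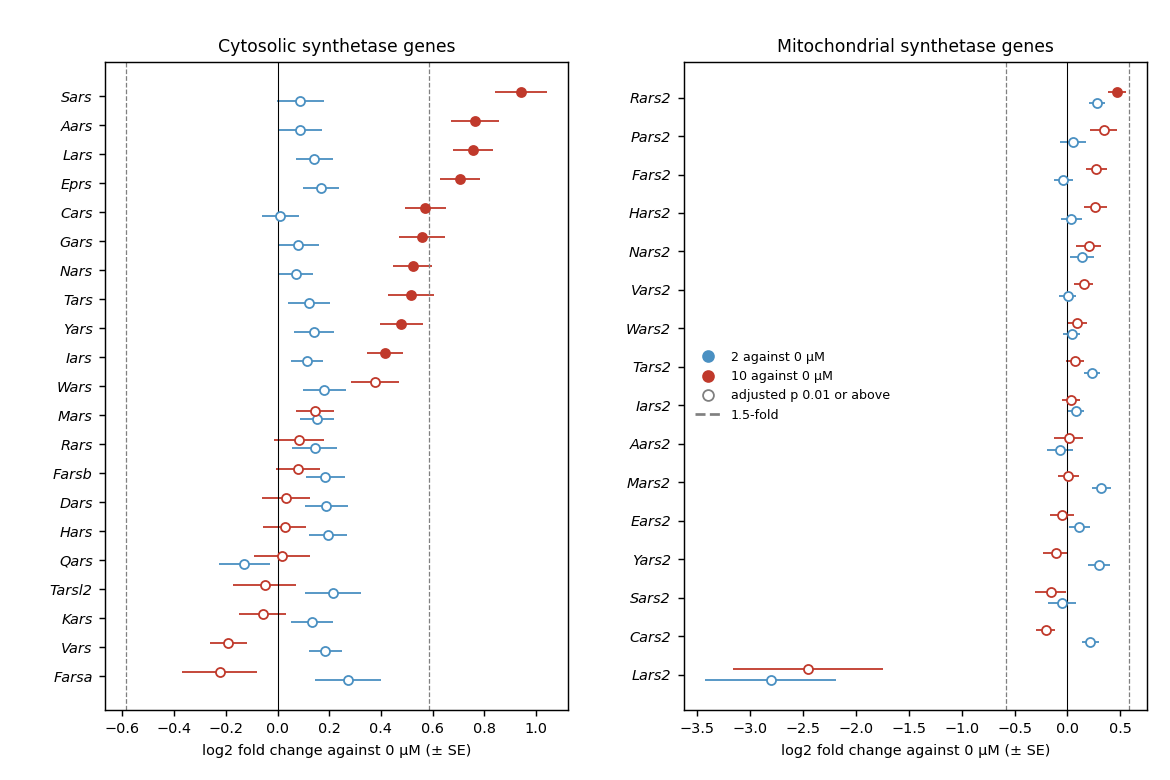
Log2 fold changes against 0 µM with their standard errors from edgeR, for 2 µM (blue) and 10 µM (red), with filled points at an adjusted p under 0.01, open points otherwise and dashed lines at 1.5-fold. All 2 µM points are open, 10 cytosolic and 1 mitochondrial 10 µM points are filled, and Lars2 lies far to the left at both doses with long error bars.

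The doses were also compared directly, with the same 10 µM libraries. Between 10 and 2 µM, 9 cytosolic genes were higher at 10 µM, namely Aars, Cars, Eprs, Gars, Iars, Lars, Nars, Sars and Tars, against 5.63% of all tested genes. No mitochondrial gene was, by edgeR or by DESeq2, with Fars2 and Rars2 at an unadjusted p under 0.05. Vars and Cars2 were lower at 10 µM, against 5.13% of all tested genes, and their count among 37 genes is near this share. DEGs were Sars (log2 fold change 0.85), Aars (0.68) and Lars (0.61), against 3.92% higher over all tested genes. Lower DEGs were 0 by edgeR and by DESeq2, against 1.59%, with 2 cytosolic genes (Farsa and Vars) and 3 mitochondrial genes (Cars2, Mars2 and Yars2) lower at an unadjusted p under 0.05. Leaving out the second 10 µM replicate ended the call of Aars (adjusted p = 0.0126). Of the 9 genes, 3 were called without the second and 4 without the first 10 µM replicate, and 5 without the second 2 µM replicate. Lars and Sars passed by adjusted p in all 16 alternative fits, but Lars was under 1.5-fold in 6 of them, down to a log2 fold change of 0.55. These included the fits with no filter, with DESeq2 and without the first 0 µM, the third 2 µM or the first 10 µM replicate. Under scaling by total counts 10 cytosolic genes and 1 mitochondrial gene were higher at 10 µM, and none lower. The median log2 fold change was 0.20 over the cytosolic, 0.059 over the mitochondrial and 0.026 over all tested genes.

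Vars, for valyl-tRNA synthetase, was the one cytosolic gene that fell between these doses by edgeR's test. Farsa, with a log2 fold change of −0.50 (edgeR adjusted p = 0.0309), was also called lower by DESeq2. The fits with no filter and without the third 2 µM replicate called Farsa lower too. Vars had 383, 389 and 386 CPM at 0 µM, 433, 459 and 424 CPM at 2 µM, and 335 and 341 CPM at 10 µM. The 3 doses thus did not overlap, with the highest values at 2 µM and the lowest at 10 µM. From 2 to 10 µM it fell by 0.37 on the log2 scale (SE 0.0722, edgeR adjusted p = 0.00421), whereas neither dose differed from 0 µM at the threshold (adjusted p = 0.131 at 2 µM and 0.103 at 10 µM). The call was lost when the first or the second 2 µM replicate (adjusted p = 0.014 and 0.0265) or either 10 µM replicate (0.0194 and 0.0199) was left out, and with scaling by total counts. Vars lies on chromosome 17 from 35000987 to 35016322, on the plus strand.

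Cars2, for mitochondrial cysteinyl-tRNA synthetase, showed the same order of doses. It had 24.0 to 26.4 CPM at 0 µM, 28.5 to 30.7 CPM at 2 µM and 21.6 and 22.5 CPM at 10 µM, and fell by 0.42 from 2 to 10 µM (SE 0.0917, edgeR adjusted p = 0.00757). This call was lost in 10 of the 16 alternative fits, 7 of which left out in turn the second or the third 0 µM replicate, any 2 µM replicate or either 10 µM replicate, with adjusted p values up to 0.0416. Exons of Naxd, which the files name Carkd, cover 22.19% of its exon bases on the opposite strand, and that gene was higher at 10 µM, with 60.9 ± 4.99 CPM (SD, n = 2) against 37.9 ± 6.04 CPM (SD, n = 3) at 0 µM.

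Rars2, for mitochondrial arginyl-tRNA synthetase, was the one mitochondrial gene that rose at 10 µM. It had 29.2, 29.2 and 30.2 CPM at 0 µM, 36.8, 37.1 and 33.6 CPM at 2 µM, and 40.8 and 40.9 CPM at 10 µM. All treated libraries lay above all untreated ones. The log2 fold change was 0.28 at 2 µM (adjusted p = 0.0664) and 0.47 at 10 µM (SE 0.0826, adjusted p = 0.0042). Cytosolic Rars had a log2 fold change of 0.083 at 10 µM (adjusted p = 0.606), so that for arginine it was the mitochondrial gene that rose. Rars2 lies on chromosome 4 from 34614957 to 34660167, on the plus strand. Nars2 and Vars2, the mitochondrial genes for asparagine and valine, had log2 fold changes of 0.20 and 0.15 at 10 µM (edgeR adjusted p = 0.298 and 0.274).

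Lars2 had the widest spread of the 37 genes and the lowest log2 fold change of all 14296 tested genes at 2 µM, yet did not pass the test. It had 513, 147 and 85.6 CPM at 0 µM, 48.7, 21.2 and 35.5 CPM at 2 µM, and 67.8 and 21.01 CPM at 10 µM. Every treated library lay below every untreated one, but the untreated values differed among themselves by more than the lowest of them differed from the treated ones. The log2 fold change was −2.81 at 2 µM (SE 0.622, edgeR adjusted p = 0.0338) and −2.46 at 10 µM (SE 0.708, adjusted p = 0.0404). Without the first 0 µM replicate these values were −1.71 (adjusted p = 0.0189) and −1.39 (adjusted p = 0.0442). Lars2 was a DEG in 2 of the 16 alternative fits at each dose.

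Lars2 lies on chromosome 9 from 123366927 to 123462666 on the plus strand, and none of its 75-base stretches occurs in transcripts of another gene of the GENCODE annotation, which does not list Rn45s. Rn45s, the ribosomal RNA precursor, had 11720 CPM, 14130 CPM and 18420 CPM in the 0 µM libraries, in the opposite order to Lars2, and 5877 to 11100 CPM in the treated ones. The part of ribosomal RNA in the Lars2 values was not tested. Lars2 made up 54.0%, 25.9% and 16.9% of all counts of mitochondrial synthetase genes at 0 µM, and 4.30% to 13.0% in the treated libraries, so that it weighs on every sum over these genes.

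The balance of the compartments is a ratio of counts inside a library and needs no scaling. The log2 ratio of summed cytosolic to summed mitochondrial counts had a mean ± SD of 2.67 ± 0.415 at 0 µM, 3.18 ± 0.0284 at 2 µM and 3.46 ± 0.0889 at 10 µM (n = 3, 3 and 2). Without the first 0 µM replicate the difference from 0 µM went from 0.51 to 0.27 at 2 µM and from 0.79 to 0.56 at 10 µM. Without Lars2, a choice made after seeing the data, it was 3.27 ± 0.0402, 3.28 ± 0.0416 and 3.59 ± 0.0081. The difference between 2 and 0 µM was then 0.0071, less than the spread between libraries, whereas that between 10 and 0 µM was 0.32 and the 10 µM libraries lay above all others. The summed cytosolic level was 4124 ± 209 CPM at 0 µM, 4501 ± 127 CPM at 2 µM and 5515 ± 45.4 CPM at 10 µM. The summed mitochondrial level without Lars2 was 426 ± 9.48 CPM, 463 ± 7.40 CPM and 457 ± 6.34 CPM.

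**Figure D4:**
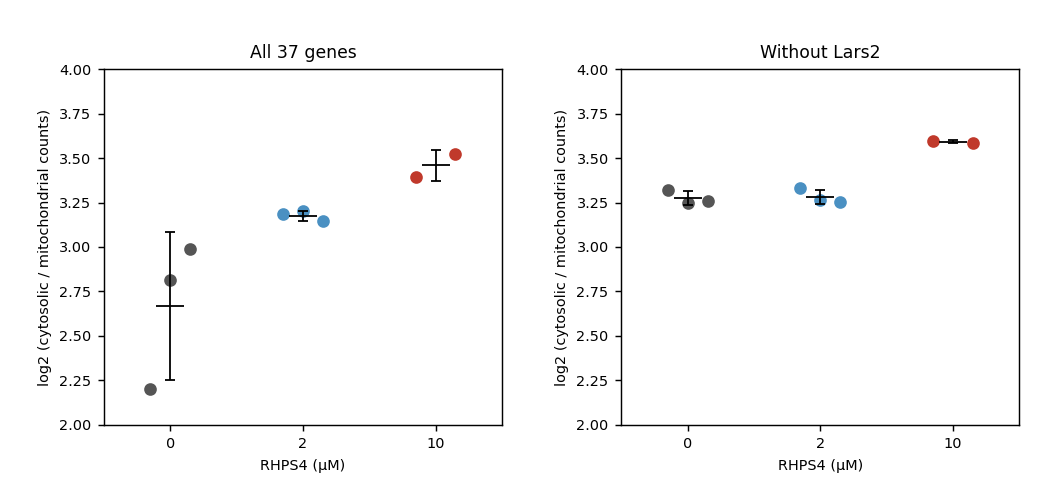
Log2 ratio of summed cytosolic to summed mitochondrial synthetase counts in each library (points), with dose means and SD (n = 3, 3 and 2), for all genes on the left and without Lars2 on the right, on an axis from 2 to 4. On the left the 0 µM points run from 2.20 to 2.99, and on the right they lie between 3.25 and 3.32, level with those at 2 µM and below both 10 µM points.

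Genes for the same amino acid were compared as pairs, with 0.5 added to each count. There were 18 pairs, and Eprs, Fars2 and Tars2 each stand in more than 1 of them. From 0 to 10 µM the log2 ratio of the cytosolic to the mitochondrial gene moved up with no overlap of libraries in 12 pairs, down with no overlap in 5 and overlapped in 1. The 5 were those of both phenylalanine subunits, histidine, arginine and valine. With 3 libraries against 2, 22.9% of all single tested genes lay wholly above 0 µM and 20.0% wholly below, and the share among other pairs of genes was not computed. For serine the ratio moved from 5.22 ± 0.128 (SD, n = 3) to 6.33 ± 0.0774 (SD, n = 2), and for cysteine from 1.87 ± 0.101 to 2.65 ± 0.092. For arginine it moved the other way, from 2.51 ± 0.165 to 2.13 ± 0.0206. The leucine ratio, from 0.54 ± 1.24 to 3.60 ± 1.17, had an SD above 1 log2 unit, Lars2 being the gene with the wide spread.

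**Figure D5:**
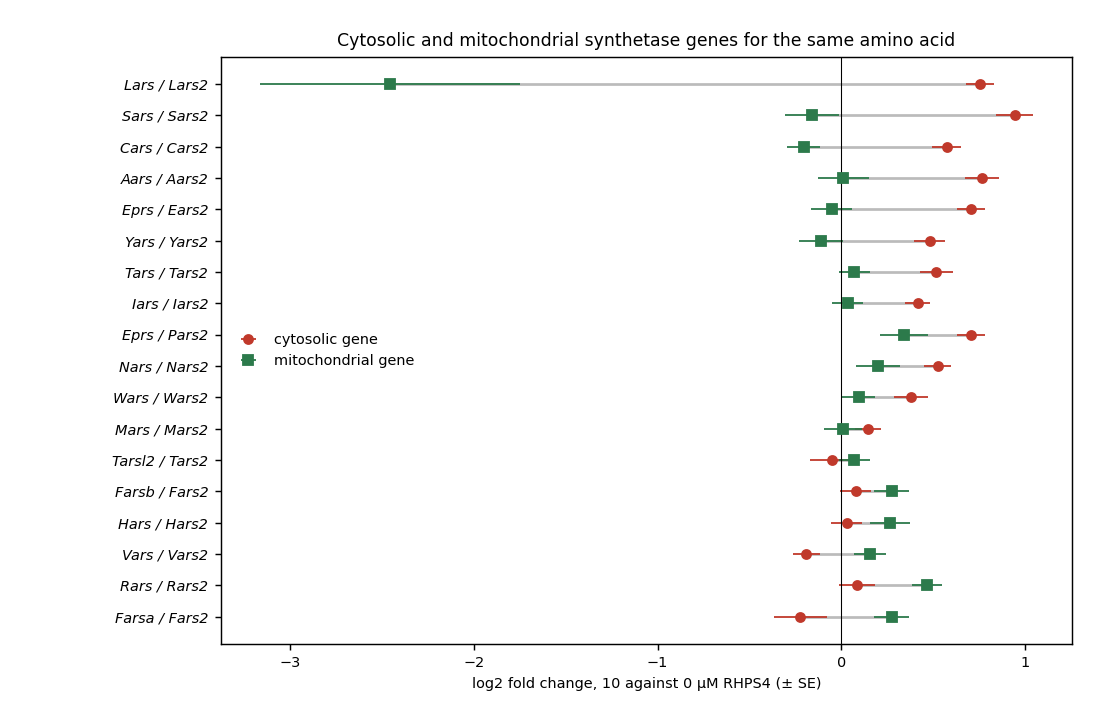
Log2 fold changes at 10 against 0 µM (± SE from edgeR) of the cytosolic gene (red circles) and the mitochondrial gene (green squares) for each amino acid, joined by a line and ordered by the change of their log2 ratio. The cytosolic point lies to the right for Lars, Sars, Cars, Aars and Eprs, and to the left for Vars, Rars and Farsa.

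Promoters of the synthetase genes were searched for the C/EBP-ATF response element, the sequence at which ATF4 is known to bind together with C/EBP proteins. Its core was written as TGATGNAA, or TTNCATCA on the other strand, and sought in the 250 bases before and 50 bases after the start of each gene, taken from RefSeq on GRCm38.p6. Windows were at hand for 28 of the 37 genes, and Cars, Hars, Hars2, Lars, Nars, Pars2, Rars, Vars and Wars had none. The motif was held by 5 of 14 cytosolic genes (Aars, Gars, Iars, Tars and Yars) and by 0 of 14 mitochondrial genes. Over all genes with such windows 4.51% held it, and 2.81% of the tested ones did. All 5 were among the 7 cytosolic genes with a window that rose at 10 µM, Eprs and Sars being the others, whereas 0 of the 7 that did not rise held it. For each of the 5 genes that held the motif a site is shown with 10 bases on each side, 5′ to 3′ on the strand of the gene and with the motif in capitals, because all 5 rose.

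Aars, chr8:111033841-111033868, plus strand: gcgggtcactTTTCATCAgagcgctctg
Gars, chr6:55037961-55037988, plus strand: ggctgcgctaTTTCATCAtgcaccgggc
Iars, chr13:49682127-49682154, plus strand: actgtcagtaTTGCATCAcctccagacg
Tars, chr15:11399656-11399683, minus strand: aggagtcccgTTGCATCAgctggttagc
Yars, chr4:129189896-129189923, plus strand: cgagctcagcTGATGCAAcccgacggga

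The Aars site shown began 9 bases after the start. Those of Gars and Tars began 30 and 15 bases before the start, and those of Iars and Yars 7 and 3 bases after it. The Aars window lies within the gene as GENCODE draws it, which has an earlier start. The letters read TTGCATCA or its reverse TGATGCAA in Iars, Tars and Yars, and TTTCATCA in the sites shown for Aars and Gars. Among all tested genes with a window, 38 of the 300 that rose at 10 µM held the motif (12.7%) and 8 of the 243 that fell (3.29%). A match is only a description of the letters, and no binding was measured.

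Since RHPS4 binds G4 structures, the same windows were searched for 4 runs of at least 3 G, or of C for the other strand, with 1 to 7 bases between runs. Of the 28 synthetase genes 1 held this pattern, the mitochondrial Fars2, against 20.4% of all genes with such windows and 31.1% of the tested ones. Fars2, for phenylalanyl-tRNA synthetase, had a log2 fold change of 0.27 at 10 µM (adjusted p = 0.0889). None of the genes that rose and had a window held it.

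A list of 20 genes, Atf4 and known genes of the amino acid response, was followed beside the synthetases. The list overlaps the study's own DEGs, so it is not independent evidence. At 10 µM 17 rose, against 2.77% of all tested genes, and 14 were higher DEGs, against 1.95%. Phgdh, Slc7a5 and Cebpb did not pass. The median log2 fold change of the list was 1.28. At 2 µM 0 rose, against 0.203% of all tested genes, and 0 fell, against 0.546%, and DESeq2 also gave 0. There 6 were higher and 4 lower at an unadjusted p under 0.05. Chac1, which degrades glutathione, had a mean ± SD of 17.97 ± 1.63 CPM at 0 µM, 20.7 ± 0.733 CPM at 2 µM and 74.0 ± 3.71 CPM at 10 µM (n = 3, 3 and 2). Asns, for asparagine synthetase, had 129 ± 12.1 CPM, 139 ± 2.07 CPM and 288 ± 0.35 CPM. Atf4 itself rose from 303 ± 34.8 CPM to 444 ± 7.64 CPM at 10 µM (log2 fold change 0.56, adjusted p = 0.00326). Of the 18 listed genes with a promoter window, 7 held the motif (38.9%).

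Other genes of tRNA charging were also tested. Of 20 listed genes for scaffold proteins of the complex, tRNA editing and maturation, mitochondrial glutaminyl-tRNA formation and elongation factors, 0 passed at 10 µM. Over all tested genes 2.77% rose and 2.46% fell, so a count of 0 among 20 is near these shares. At an unadjusted p under 0.05, 3 were higher and 2 lower, and DESeq2 found 1 of the 20 lower. At 2 µM 0 passed, against 0.203% higher and 0.546% lower over all tested genes, beside 10 higher at an unadjusted p under 0.05. Between 10 and 2 µM, Aimp2, a scaffold of the complex, fell by 0.67 (adjusted p = 0.00149), and Tufm, the mitochondrial elongation factor Tu, fell by 0.42 (adjusted p = 0.00376). Over all tested genes 5.13% fell between these doses.

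The tRNAs that mitochondrial synthetases charge are encoded in mtDNA and counted as features of their own. These counts do not tell mature tRNAs from unprocessed transcripts that hold them, and charging was not measured. Of 22 such features 11 had enough counts to be tested. At 10 µM 6 of them fell, TRNL1, TRNI, TRNW, TRNA, TRNT and TRNP, against 2.46% of all tested genes. At 2 µM TRNW and TRNT fell, against 0.546%. TRNA had only 0.061 and 0.072 CPM at 10 µM, under the floor of 3 counts. The paper holds that tRNA reads were too few to be robust for every sequence. TRNW, for tryptophan, had 14.5 ± 1.01 CPM (SD, n = 3) at 0 µM and 2.59 ± 0.206 CPM (SD, n = 2) at 10 µM, while Wars2, which charges it, had 26.7 ± 0.42 CPM and 28.4 ± 0.538 CPM. TRNT, for threonine, had 9.03 ± 1.19 CPM and 1.37 ± 0.812 CPM, while Tars2 had 61.7 ± 2.26 CPM and 64.7 ± 5.90 CPM. Among Aars2, Iars2, Lars2, Pars2, Tars2 and Wars2, the synthetase genes for these 6 tRNAs, 0 passed edgeR's or DESeq2's test at 10 µM. At an unadjusted p under 0.05 by edgeR's test, Pars2 was higher and Lars2 lower.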

How the data were processed

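Total RNA of MEF cells was depleted of nuclear ribosomal RNA, and stranded libraries were read as pairs of 75 bases. According to their methods and processing notes the authors trimmed the reads with Trim Galore and cutadapt, aligned them to mm10 with STAR 2.5.2a and used featureCounts for the number of uniquely aligned fragments on each gene. The values they deposited are these counts, as whole numbers without normalization. The annotation and the strand setting of the counting are not given in the sources used here, so reads of overlapping genes on opposite strands may not have been separated.

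The counts were tested in R 4.3.3 with edgeR 4.0.16 (TMM scaling, filterByExpr, and the quasi-likelihood fit and test, with Benjamini-Hochberg adjusted p values over 14296 genes), with all 8 libraries in one model and dose as its only factor. A gene was said to rise or fall at an adjusted p under 0.01, and a DEG also had a fold change over 1.5, which are the study's thresholds. The 10 µM group held 2 libraries, and the spread was estimated over all groups together. Fold changes are edgeR's, and CPM are counts relative to the TMM-scaled library size. SEs of log2 fold changes were derived from the F statistic, as the log2 fold change over the root of F. Floors of 3 counts cover counting error only, since PCR copies are not independent molecules. The closest libraries, the second and the third at 0 µM, had a chi-square per degree of freedom of 3.65, above that of sampling noise. Each library was therefore treated as its own replicate. This value cannot tell separate cultures from separate preparations of one culture. The tests were checked on simulated counts.

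All 37 genes are named. Values in each library are given for DEGs. Their counterparts of the other compartment are given by values or ranges, and Ears2 by its log2 fold change alone. Vars, Cars2 and Rars2, also given by values or ranges, were chosen after their values were seen. The genes, the lists and the motifs were chosen with earlier results of these data known. Exon lengths, positions and overlaps come from GENCODE M21 on GRCm38, the assembly that mm10 names. Same-numbered libraries at 0 and 2 µM deviated together with correlations of 0.199, 0.0845 and 0.161, and those at 10 µM had negative values, so the numbers were not taken as pairs. Alternatives were RLE scaling, TMM over nuclear genes, total counts, no filter on counts or a minimum of 10 in all libraries, DESeq2 1.42.0, no minimum fold, only the groups compared, the replicate block and each library left out. Tables and figures used Python 3.11.15. One gene of the tRNA charging list and one promoter site are not reported here.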

Additional observations from a re-analysis of the deposited data

How the results depend on the processing

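The 4 DEGs at 10 µM kept their calls in all 16 alternative fits of that comparison, and no called change of a synthetase gene reversed its direction in any fit. Scaling by total counts, without TMM, moved the median log2 fold change of all tested genes to 0.23 at 10 µM and 0.16 between 10 and 2 µM, and values under it are read relative to that shift. With it the cytosolic DEGs were 11 at 10 µM and 7 between the doses, the mitochondrial DEGs 1 at 10 µM, the cytosolic medians 0.23 (2 against 0 µM), 0.60 (10 against 0 µM) and 0.33 (10 against 2 µM), and the mitochondrial medians 0.27 (10 against 0 µM) and 0.19 (10 against 2 µM). Without a minimum fold the calls were 10 cytosolic and 1 mitochondrial at 10 µM, and 10 and 1 between the doses, in both directions together. The mean in place of the median gave 0.31 over the cytosolic genes at 10 µM, and −0.074 at 2 µM and −0.067 at 10 µM over the mitochondrial genes, where the sign turned. The mean is drawn down by Lars2, which became the 1 mitochondrial DEG at 2 and at 10 µM with no filter on low counts. The log2 ratio of the compartments changed by 0.51 at 2 µM and 0.79 at 10 µM. It changed by 0.0071 and 0.32 without Lars2, and by 0.18 and 0.36 as a mean over genes of log2 counts. With a library left out it ranged from 0.27 to 0.67 at 2 µM and from 0.56 to 0.95 at 10 µM, with the lowest values without the first 0 µM replicate.

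With a library left out, the cytosolic median at 10 µM ranged from 0.24 to 0.39, and between 10 and 2 µM from 0.044 without the second to 0.27 without the first 10 µM replicate. The mitochondrial median between 10 and 2 µM ranged from −0.061 to 0.080, and the mitochondrial DEGs in that comparison from 0 to 1, the 1 being Yars2, lower without the first 10 µM replicate. Fits that leave a single 10 µM library assume that it varies like the other groups. The replicate block added 1 mitochondrial DEG at 2 µM and 1 at 10 µM, Lars2 in both (log2 fold change −2.48, adjusted p = 0.00839 at 2 µM, and −2.62, adjusted p = 0.00373 at 10 µM), took Lars under 1.5-fold between the doses, and by adjusted p alone gave 9 rising cytosolic and 0 rising mitochondrial genes at 10 µM, without Yars and Rars2. The numbers are labels only. At 0 and 2 µM each library correlated best with its own number, which is a hint from the data and not the design. The precision is limited by 2 libraries at 10 µM and by counts of mitochondrial genes as low as 63 in a library, and no detection limit was computed.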
